A study of Homo sapiens with 4 samples.

Results

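The genes described here are 10 that lymphocytes use to read their antigen receptors, followed through a culture in which human embryonic stem cells are taken towards blood and in which no lymphocyte is the stated product. The 10 are LCK, FYN and LYN, which are kinases of the SRC family, ZAP70 and SYK, which are kinases of the SYK family, the receptor chain CD79B, the exchange factor VAV1, the adaptor LCP2, the phosphatase PTPN6 and the cortactin relative HCLS1. They were picked by symbol out of 17630 genes analysed, because LCK is high in the stem cells and ZAP70 in the CD31+CD34+ cells. The levels of LCK and ZAP70 are therefore a description of what chose them, and the other members were also named with values of these libraries known.

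Messenger RNA was measured in H1, an established human embryonic stem cell line. The 4 groups were undifferentiated H1 cells (hESC), APLNR+ mesoderm-stage cells (MES) taken on day 2, CD31+CD34+ cells (HEP) taken on day 4 and CD31+CD43+ cells (HPC) taken on day 7, the last 3 collected by flow sorting. All differentiated cells had received activin A at 40 ng/ml and BMP4 at 50 ng/ml at the start, HEP and HPC later also VEGF at 40 ng/ml and bFGF at 50 ng/ml, and HPC finally also SB-431542, an inhibitor of activin receptors, whose dose the labels do not state. Each group was 1 library from 1 cell line, so replicate error is unknown for every value, nothing could be tested and no difference has a replicate check.

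An antigen receptor has no enzyme of its own. When it is engaged, a SRC family kinase (LCK or FYN in T cells, LYN in B cells) phosphorylates tyrosines in paired motifs of the receptor's signalling chains, of which CD79B is 1 of the B cell pair. ZAP70 in T cells, or SYK in B cells, mast cells, platelets and other blood cells, then docks on these motifs and phosphorylates adaptors such as LCP2 (also called SLP-76). VAV1 and the phospholipases gather there and pass the signal to the cytoskeleton, calcium and RAS, HCLS1 (also called HS1) acts on actin, and PTPN6 (also called SHP-1) takes phosphates off again. The transmembrane phosphatase CD45, encoded by PTPRC, keeps the SRC family kinases of lymphocytes ready by removing a phosphate from their tails.

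What the authors deposited is 1 normalised expression signal for each gene. Changes are on the log2 scale after 1 was added to each value, which understates changes of low genes. A gene is called higher or lower where that log2 difference reaches 1 in either direction and the larger value is 5 or more, and it is said to stand above every other library where its value + 1 is at least 2 times that of each of the others and its value 5 or more. Sums of values ran between 306724 and 426980, and 5191 to 6655 genes stood at 5 or more in a library. The depth behind the values is unknown. Differences between the libraries also moved with the GC content of the transcripts, so values with this trend removed are given where they change a call. The GC content of the 10 genes ran between 45.7% in LYN and 62.3% in ZAP70, with a median of 55.4%, against 50.7% over the genes at 5 or more in any library.

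Of the sort antigens, APLNR was highest in MES (344) but nearly as high in HEP (250), with no call between them. CD34 was highest in HEP (43.6) and SPN (CD43) in HPC (24.4). PECAM1 (CD31) was low, at 0.01 in hESC and in MES, then 1.83 (HEP) and 7.49 (HPC). Lymphocyte genes were read next, since these libraries are bulk samples, in which a few cells with much of an RNA and many cells with little of it cannot be told apart. Of 15 T cell markers, the number that reached 1 was 0 (hESC), 1 (MES), 1 (HEP) and 2 (HPC), and their sum was between 2.21 and 5.52 in the 4 libraries. Those that reached 1 were BCL11B in MES (2.23), CD3D in HEP (1.63) and HPC (1.66), and CD7 in HPC (3.41). CD5, IL7R and THEMIS were listed at 0 in all 4 libraries, and CD3E in all but HPC, where it stood at 0.03. Of 8 measured B cell markers, 0 stood at 1 or more in any library, their sum was between 0.12 and 0.53, and the B cell transcription factors PAX5 and EBF1 were listed at 0 throughout. Of 5 measured natural killer cell markers, NKG7 alone reached 1 (1.29 in HPC). PTPRC, the gene of CD45, stood at 0.03 in hESC, 0 in MES and HEP and 0.04 in HPC.

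By these values 9 of the 10 genes reached 5 in some library, and LCP2, at most 3.26, did not. The number at 5 or more was 4 (hESC), 3 (MES), 5 (HEP) and 7 (HPC). LCK stood above every other library in hESC, ZAP70 in HEP, and SYK, VAV1, PTPN6 and HCLS1 in HPC, while CD79B, FYN and LYN were at 5 or more in at least 2 libraries without standing apart in 1. Over all genes at 5 or more in the library concerned, the share that stood above every other library was 7.02% (hESC), 4.73% (MES), 3.54% (HEP) and 4.52% (HPC). These shares give the background, and since LCK and ZAP70 were chosen on this measure, nothing is read from the count. The 10 genes lie on 10 different chromosomes.

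**Figure D1:**
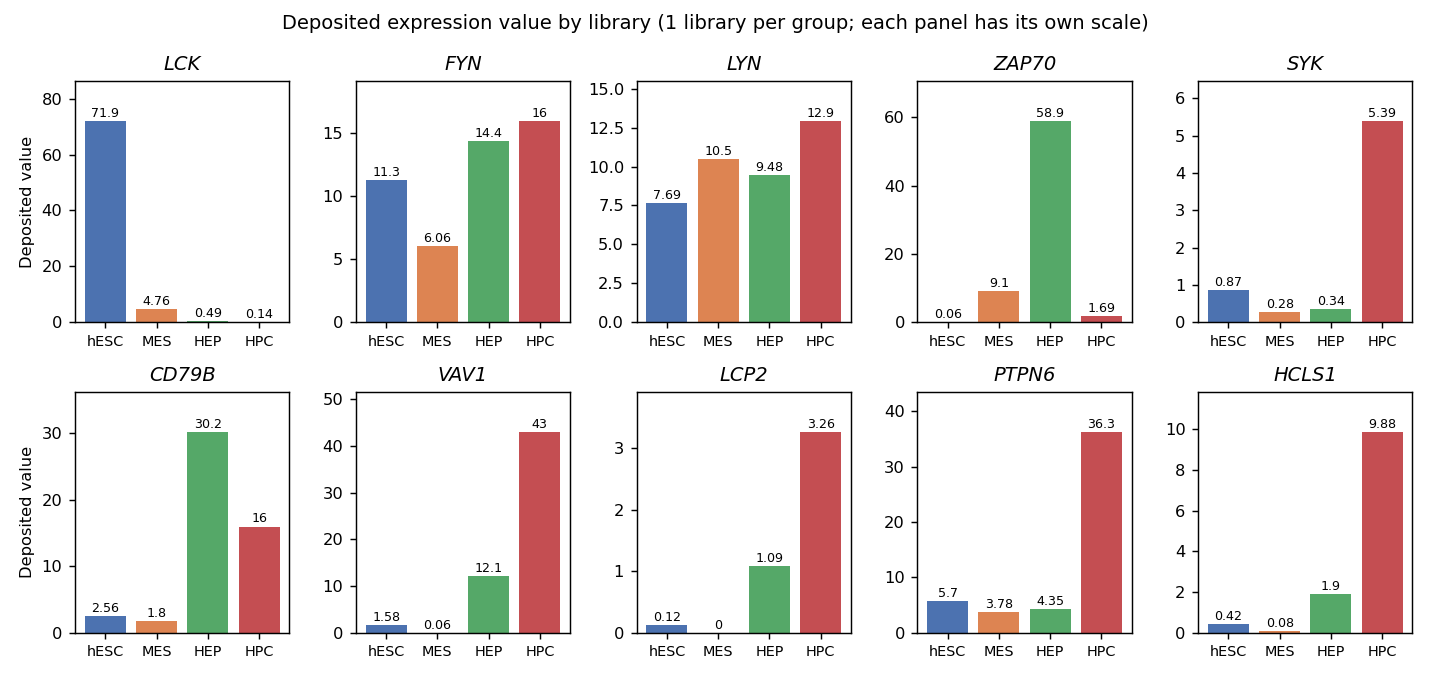
Deposited expression value (vertical axis, each panel with its own scale starting at 0) of the 10 genes in hESC, MES, HEP and HPC, 1 library and so 1 bar each. LCK is highest in hESC (71.9), ZAP70 (58.9) and CD79B in HEP, and SYK, VAV1, LCP2, PTPN6 and HCLS1 in HPC. FYN and LYN are also highest in HPC, by small margins.

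LCK, the kinase that starts signalling from the T cell receptor, stood at 71.9 (hESC), 4.76 (MES), 0.49 (HEP) and 0.14 (HPC). The order followed the order of the stages, and the value in hESC was 12.7 times that in MES on the scale of value + 1. The log2 difference was -3.66 for MES against hESC and -6.00 for HPC against hESC, which placed LCK at rank 7453 of 7458 genes from the highest difference in the first and at 7433 of 7437 in the second. Among the 466 genes that stood above every other library in hESC, LCK ranked 5 by margin. LCK was chosen for its high level in hESC, so these ranks restate that choice. HEP against MES gave -1.95, which is not a call because LCK was under 5 in both, but was one with the GC trend removed (5.15 in MES, log2 difference -2.11).

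Chains that pair with LCK in T cells were at or near 0 in the library where LCK was highest. In hESC CD4 stood at 0.49, CD8A at 0.07, CD8B at 0.16, CD247 (the zeta chain) at 0.53 and CD28 at 0. Neither of the genes beside LCK on chromosome 1 had a call between successive stages. FAM167B stood at 0.95 (hESC), 0.39 (MES), 0.14 (HEP) and 0.05 (HPC), which is the order of LCK at values too low for a call. HDAC1, a histone deacetylase, stood at 53.5 (hESC), 41.4 (MES), 33.4 (HEP) and 40.3 (HPC).

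Over the 4 libraries, the 3 genes whose centred log2 values lay nearest to those of LCK, out of 8173 at 5 or more in any library, were LECT1 (Euclidean distance 0.28), POLR3G (0.55), a subunit of RNA polymerase III, and AASS (0.65), an enzyme of lysine breakdown. LECT1 had 77.6 (hESC), 4.16 (MES), 0.41 (HEP) and 0.30 (HPC), beside 71.9, 4.76, 0.49 and 0.14 for LCK. With the GC trend removed the 3 genes ranked 1, 6 and 21. With 4 points per gene such likeness is a description only.

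The window from 250 bases before to 50 bases after the RefSeq start site of LCK (GRCh38.p14) is shown because LCK is the member that leaves the stem cell library. Its capitals mark matches, on either strand, to any of the motifs searched in all windows here. The ETS core was searched as AGGAAG and, in its other form, as CGGAAG. The motif of GATA factors was searched as AGATAA and, in its other form, as TGATAA. That of RUNX factors was searched as TGTGGT and, in its other form, as TGCGGT. The E-box was searched as CAGCTG and, in its other form, as CAGATG. The octamer was searched as ATGCAAAT. The SOX motif was searched as AACAAAG and, in its other form, as AACAATG. The last was the TATA box, searched as TATAAA.
LCK (chr1:32251015-32251314, plus strand): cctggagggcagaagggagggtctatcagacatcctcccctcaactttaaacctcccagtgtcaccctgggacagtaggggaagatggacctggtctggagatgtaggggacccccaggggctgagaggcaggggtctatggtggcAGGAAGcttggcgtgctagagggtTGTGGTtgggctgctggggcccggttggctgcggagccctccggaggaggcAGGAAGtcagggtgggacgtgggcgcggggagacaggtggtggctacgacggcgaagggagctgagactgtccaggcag
It holds 2 ETS cores and 1 RUNX match and none of the octamer, SOX, GATA, E-box or TATAAA letters. Of the 22198 windows of protein-coding genes in the table, 49.8% hold an ETS core, 19.0% a RUNX match, 27.6% an E-box, 12.5% a GATA match, 9.47% TATAAA, 6.62% a SOX match and 1.66% an octamer. The table gives 1 start per gene, whereas LCK is known to have 2 promoters, and a value per gene does not say which was used.

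ZAP70 had the opposite start and a peak in the middle of the series. This kinase, which binds the phosphorylated T cell receptor and is used as a marker in lymphocytes and their leukaemias, stood at 0.06 (hESC), 9.10 (MES), 58.9 (HEP) and 1.69 (HPC). HEP was the highest library and MES the next, with a margin of 5.93 times on the scale of value + 1, and ZAP70 ranked 10 by margin among the 184 genes that stood above every other library in HEP. The log2 difference was 3.25 for MES against hESC, 2.57 for HEP against MES and -4.48 for HPC against HEP, the last at rank 5891 of 5894. Because ZAP70 was chosen for its high level in HEP, its ranks restate that choice. With the GC trend removed, its value in HEP was 48.6 and the differences were 3.37, 2.17 and -4.21, so each call held.

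HEP was also the library with the largest sum of endothelial markers, 579 over 8 genes, against 66.3 in MES, and all 8 of these markers stood at 1 or more there. The sum was 341 in HPC, also with all 8 at 1 or more, where ZAP70 stood at 1.69. KDR (210) and PLVAP (139.5) were the largest in HEP. ICAM2 (73.2 in HEP, 113 in HPC) and PECAM1 (1.83 and 7.49) were higher in HPC, and the other markers in HEP. PECAM1 is the gene of CD31, by which both libraries were sorted. The part of the endothelial markers in the level of ZAP70 was not tested. The T cell receptor chains that ZAP70 binds were near 0 in HEP, with CD247 at 0.04 and CD3E and CD3G at 0, and CD3D at 1.63. The gene after ZAP70 on chromosome 2, TMEM131, stood at 1.24 (hESC), 6.59 (MES), 0.78 (HEP) and 1.32 (HPC), so it was low where ZAP70 was highest. Counting by strand is not stated, so overlapping genes cannot be told apart.

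The nearest patterns to that of ZAP70 were those of SP6 (distance 1.18), a zinc finger transcription factor, PMP22 (1.27), a protein of peripheral myelin, and NKX2-5 (1.33), a cardiac transcription factor, each highest in HEP (75.4, 45.5 and 19.3). These distances are larger than those of the nearest genes to LCK, VAV1 or CD79B, and with the GC trend removed the 3 genes ranked 5, 6 and 7.

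The ZAP70 window is shown as that of the member highest in HEP.
ZAP70 (chr2:97713326-97713625, plus strand): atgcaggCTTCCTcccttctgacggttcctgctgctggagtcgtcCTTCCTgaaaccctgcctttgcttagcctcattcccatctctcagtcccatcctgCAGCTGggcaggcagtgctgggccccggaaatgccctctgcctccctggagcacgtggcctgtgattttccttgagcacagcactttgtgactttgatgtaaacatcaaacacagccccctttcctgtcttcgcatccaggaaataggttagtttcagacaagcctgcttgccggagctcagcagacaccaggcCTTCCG
It holds 3 ETS cores, all on the strand opposite to the gene, and 1 E-box, at position -150 from the start site.

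SYK, the relative of ZAP70 in B cells, mast cells and platelets, was low until the last stage. It stood at 0.87 (hESC), 0.28 (MES), 0.34 (HEP) and 5.39 (HPC). HPC was the highest, 2.25 above HEP on the log2 scale, and the other 3 libraries were all under 1. The change of the log2 ratio of ZAP70 to SYK, in which any scaling common to both genes of a library cancels apart from the added 1, was 3.80 for MES against hESC, 2.50 for HEP against MES and -6.73 for HPC against HEP. SYK was just over the minimum of 5, and its call was lost with a pseudocount of 5 (0.96 for HPC against HEP). The nearest patterns to that of SYK were those of CAT (catalase, distance 0.17), ALDH1A1 (0.35) and PRKAR2B (0.43), which ranked 41, 2 and 184 with the GC trend removed.

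FYN and LYN, the SRC family kinases with wide use outside lymphocytes, moved least. FYN stood at 11.3 (hESC), 6.06 (MES), 14.4 (HEP) and 16.0 (HPC), and was called higher in HEP than in MES (log2 difference 1.12). That call was lost with a pseudocount of 5. LYN stood at 7.69, 10.5, 9.48 and 12.9 in the same order of stages and passed in none of the 4 comparisons. LYN is the member with the lowest GC content, and with the GC trend removed it stood at 5.09 in hESC and 16.2 in HPC, a log2 difference of 1.50 that would be a call, against 0.68 as deposited. The LYN difference also passed with median-of-ratios scaling (1.23) and upper quartile scaling (1.19). FYN for HPC against hESC was at 0.46 as deposited and 0.95 with the trend removed, and passed with median-of-ratios scaling (1.03).

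CD79B, the B cell receptor chain, appeared without its partner. It stood at 2.56 (hESC), 1.80 (MES), 30.2 (HEP) and 16.0 (HPC), so both CD31+ libraries were high and the earlier ones low. HEP against MES gave a log2 difference of 3.48 and HPC against hESC 2.25, whereas HPC against HEP gave -0.88 and was no call (-1.07 after rescaling to a common total). CD79A, with which CD79B forms the signalling pair of the B cell receptor, was between 0.04 and 0.20 in the 4 libraries. The neighbours of CD79B on chromosome 17, GH1 and SCN4A, stood at 0.14 or less throughout. DYSF, the membrane repair gene dysferlin, had the nearest pattern (distance 0.08), with 1.86 (hESC), 1.42 (MES), 24.7 (HEP) and 12.8 (HPC), followed by THSD1 (0.23) and EMX1 (0.24).

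VAV1, the exchange factor for RAC that is largely restricted to blood cells, had the largest positive difference between HPC and hESC among the members. It stood at 1.58 (hESC), 0.06 (MES), 12.1 (HEP) and 43.0 (HPC). HEP was 3.63 above MES on the log2 scale, and HPC 1.75 above HEP and 4.09 above hESC. The nearest patterns were those of MFNG (distance 0.45), a glycosyltransferase acting on NOTCH receptors, S100A4 (0.64), a calcium-binding protein, and ATP2A3 (0.69), a calcium pump. MFNG stood at 1.36 (hESC), 0.09 (MES), 17.3 (HEP) and 45.8 (HPC).

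LCP2, the adaptor that ZAP70 and SYK phosphorylate and that brings VAV1 to the complex, was low throughout: 0.12 (hESC), 0 (MES), 1.09 (HEP) and 3.26 (HPC). It was highest in HPC, but in no library did it reach the minimum, so it has no call. HCLS1, the actin regulator of blood cells, had the same order at a higher value, with 0.42 (hESC), 0.08 (MES), 1.90 (HEP) and 9.88 (HPC), and was called higher in HPC than in HEP (1.91) and than in hESC (2.94). PTPN6, the phosphatase that damps antigen and cytokine receptors in blood cells, was already present at the start. It stood at 5.70 (hESC), 3.78 (MES), 4.35 (HEP) and 36.3 (HPC). The first 3 libraries lay close together and HPC was far above them, 2.80 above HEP and 2.48 above hESC on the log2 scale. The genes beside PTPN6 on chromosome 12, C12orf57 (149 in HPC and 129.5 in HEP) and PHB2 (131 in HPC and 111 in HEP), passed in neither direction there.

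HPC was the library in which markers of several blood cell types stood higher. The sum over 9 megakaryocyte markers was 409 in HPC, against 7.53 in HEP, with 7 of 9 at 1 or more in HPC and 2 of 9 in HEP. ITGA2B alone stood at 283 in HPC. The sum over 8 erythroid markers was 2703 in HPC, against 22.1 in HEP, with 8 of 8 at 1 or more in HPC and 4 of 8 in HEP. Most of that sum in HPC came from the globin genes HBG2 (1509), HBG1 (655) and HBE1 (442). EPOR alone was lower in HPC (3.61) than in HEP (5.67). The sum over 9 measured myeloid markers was 23.8 in HPC, against 1.58 in HEP, with 4 of 9 at 1 or more in HPC. The 8 pan-leukocyte markers summed to 139.8 in HPC, against 26.6 in HEP, with 7 of 8 at 1 or more in HPC and 5 of 8 in HEP. They include SPN (24.4 in HPC, 0.97 in HEP), the gene of CD43, by which HPC was sorted. RAC2 and PTPRC are in this list and also among the pathway genes. The 4 mast cell markers summed to 5.30 in HPC, against 0.15 in HEP. Of these only HDC, at 4.68, stood at 1 or more in HPC. FCGR3A, a myeloid marker, was listed at 0 in every library, and the mast cell marker TPSAB1 in all but hESC, where it stood at 0.02. The part of these cell types in the levels of SYK, VAV1, LCP2, PTPN6 and HCLS1 was not tested.

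The windows of VAV1, PTPN6, LCP2 and HCLS1, all highest in HPC, are shown together, with capitals as above. SYK and FYN were also highest in HPC, and their windows, which hold no ETS core, are not printed.
VAV1 (chr19:6772458-6772757, plus strand): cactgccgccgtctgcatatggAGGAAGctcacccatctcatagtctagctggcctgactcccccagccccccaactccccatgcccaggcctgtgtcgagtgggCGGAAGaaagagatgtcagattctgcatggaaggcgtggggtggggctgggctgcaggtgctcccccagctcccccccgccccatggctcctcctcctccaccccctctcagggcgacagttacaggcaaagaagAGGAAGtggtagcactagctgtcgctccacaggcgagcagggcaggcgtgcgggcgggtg
PTPN6 (chr12:6946327-6946626, plus strand): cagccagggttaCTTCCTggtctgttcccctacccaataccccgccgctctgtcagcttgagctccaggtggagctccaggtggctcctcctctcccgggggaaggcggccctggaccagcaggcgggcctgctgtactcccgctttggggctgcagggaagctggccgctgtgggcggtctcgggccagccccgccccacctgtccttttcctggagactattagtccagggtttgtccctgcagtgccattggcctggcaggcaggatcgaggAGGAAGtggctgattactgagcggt
LCP2 (chr5:170297728-170298027, minus strand): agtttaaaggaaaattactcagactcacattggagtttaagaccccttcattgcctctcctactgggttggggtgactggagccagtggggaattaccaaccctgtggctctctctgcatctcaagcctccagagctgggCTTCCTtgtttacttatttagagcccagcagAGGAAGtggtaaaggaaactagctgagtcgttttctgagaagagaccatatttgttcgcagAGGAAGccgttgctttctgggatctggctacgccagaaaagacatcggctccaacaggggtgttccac
HCLS1 (chr3:121660854-121661153, minus strand): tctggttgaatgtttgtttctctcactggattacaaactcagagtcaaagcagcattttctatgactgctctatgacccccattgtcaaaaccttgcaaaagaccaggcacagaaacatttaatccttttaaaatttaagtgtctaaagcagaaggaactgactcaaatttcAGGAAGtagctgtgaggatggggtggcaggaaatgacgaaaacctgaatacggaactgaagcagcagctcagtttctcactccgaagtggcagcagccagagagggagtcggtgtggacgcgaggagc
Each of the 4 holds at least 1 AGGAAG on the gene's own strand, starting at position -10 in VAV1, 26 in PTPN6, -18 in LCP2 and -78 in HCLS1, the nearest to the start site in each case. In VAV1 and PTPN6 the letters at that position go on to AGGAAGTG, and in LCP2 those of another match do, starting at position -79. This longer string was looked for after the windows had been seen, and 3.60% of the protein-coding windows hold it on either strand. Of the 8 members with a window in the table, 6 hold an ETS core, against 49.8% of all windows, 3 a RUNX match, 1 an E-box and 0 a GATA, octamer, SOX or TATAAA match. SYK and FYN, also highest in HPC (5.39 and 16.0), hold a RUNX match and no ETS core. An ETS core is therefore not shared by all members highest in HPC. A match shows that the letters are there and says nothing of a factor's binding, and the absence of a match covers these letters in this window only.

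Set against all genes, the counts were as follows. For MES against hESC, 1 of the 10 genes was higher (ZAP70) and 1 lower (LCK), where 8.97% of 7458 genes at 5 or more in either library were higher and 8.76% lower. For HEP against MES, 4 were higher (CD79B, FYN, VAV1 and ZAP70) and 0 lower, where 8.08% of 7225 genes were higher and 33.9% lower. For HPC against HEP, 4 were higher (HCLS1, PTPN6, SYK and VAV1) and 1 was lower (ZAP70), where 8.99% of 5894 genes were higher and 10.7% lower. For HPC against hESC, 5 were higher (CD79B, HCLS1, PTPN6, SYK and VAV1) and 1 was lower (LCK), where 11.1% of 7437 genes were higher and 37.4% lower. Members at 5 or more in either library of these comparisons numbered 5, 5, 8 and 8. The comparisons share libraries, and because LCK and ZAP70 were chosen from them, nothing is read from these counts or from the medians that follow. Over the 10 genes the median log2 difference was -0.44 for MES against hESC, 1.09 for HEP against MES, 0.72 for HPC against HEP and 1.85 for HPC against hESC, beside -0.02, -0.11, 0 and -0.14 over all 17630 genes, many of which are near 0 in every library. For genes at 5 or more in either library, the medians were -0.21, -0.39, 0.02 and -0.57 over all genes. Those of the members at 5 or more were -0.49, 2.57, 1.08 and 2.01, and the members were named with their values known.

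**Figure D2:**
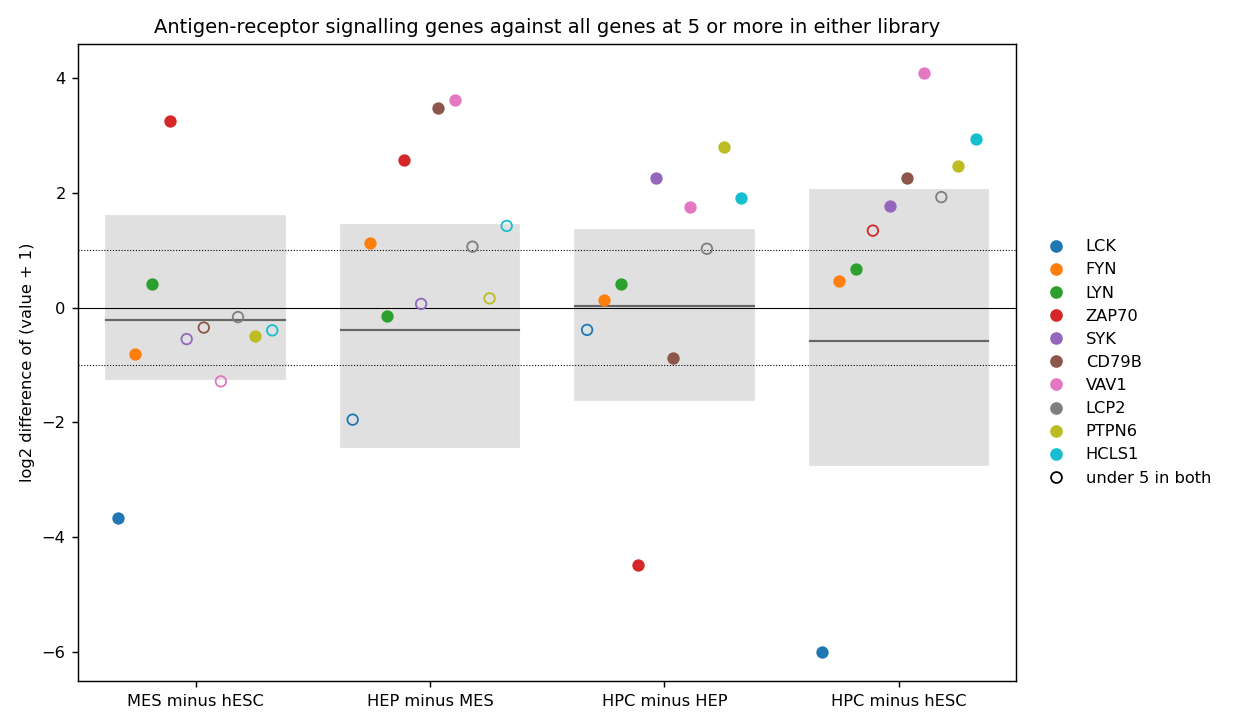
Log2 difference of (value + 1) for the 10 genes (points, hollow where the gene is under 5 in both libraries) in the 4 comparisons. The grey box spans percentiles 5 to 95 and the grey line the median of all genes at 5 or more in either library, and dotted lines mark a difference of 1 in either direction. LCK lies below the box for MES and for HPC against hESC, ZAP70 above it for MES against hESC and HEP against MES and below it for HPC against HEP, and VAV1 above it in the last 3 comparisons.

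Most members have a close relative with wider use, and in several families the relative went the other way. SRC, the founding member of LCK's family, stood at 3.97 (hESC), 32.4 (MES), 27.5 (HEP) and 22.2 (HPC), so it was called higher in MES than in hESC (2.75) where LCK was lower. The log2 ratio of LCK to SRC changed by -6.41 for MES against hESC and by -8.22 for HPC against hESC. YES1, the third widely used kinase of the family, stood at 28.7, 24.3, 6.64 and 4.55 in the order of the stages. It was called lower in HEP than in MES (-1.73), but with the GC trend removed the difference was 0.09. The B cell kinase BLK was at 0.01 or less.

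For the phosphatases, PTPN11 (SHP-2), which acts in growth factor signalling in most cells, stood at 23.6 (hESC), 32.0 (MES), 8.72 (HEP) and 8.11 (HPC). For HPC against hESC its log2 difference was -1.43 and a call. It was no call with the GC trend removed (-0.69) or with median-of-ratios scaling (-0.86). The log2 ratio of PTPN6 to PTPN11 changed by 1.93 for HEP against MES and by 2.89 for HPC against HEP (0.96 and 3.25 with the GC trend removed). CTTN, cortactin, the relative of HCLS1 in adherent cells, stood at 67.0 (hESC), 45.4 (MES), 19.7 (HEP) and 3.39 (HPC), so it was lowest where HCLS1 was highest. The log2 ratio of HCLS1 to CTTN was 6.89 higher in HPC than in hESC. Of the VAV family, VAV2, the broadly used member, kept between 3.79 and 6.69 with no call in any comparison. VAV3 stood at 3.23 (hESC), 0.54 (MES), 6.34 (HEP) and 9.54 (HPC), was called higher in HEP than in MES (2.25), and had its lowest value in MES as VAV1 did. BLNK, the B cell counterpart of LCP2, was at 0.05 in hESC and 0 in the other libraries, and CLNK was at 0 in all 4.

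**Figure D3:**
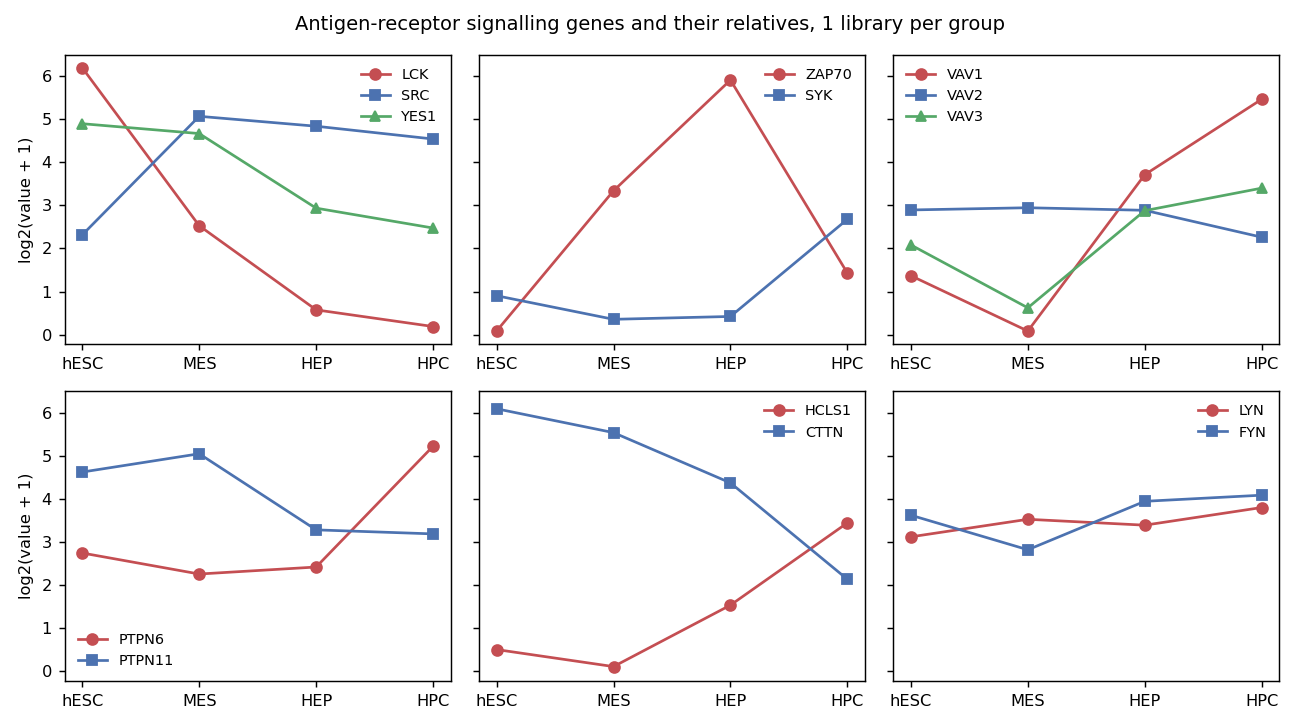
Log2(value + 1) of members and relatives in hESC, MES, HEP and HPC, 1 point per library. Heights should be compared within a gene, since how the deposited measure treats transcript length is not stated. LCK and SRC, PTPN6 and PTPN11, and HCLS1 and CTTN each run in opposite directions over the series as a whole, while LYN and FYN stay within a narrow band.

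The rest of the pathway was read from 6 lists with 96 genes, of which 94 were in the tables. Of these, 37 reached 5 in some library, 25 reached 1 but not 5, and 32 stayed under 1, so that for a good part of the lymphocyte machinery no difference could be called. The number at 5 or more was 16 (hESC), 15 (MES), 21 (HEP) and 27 (HPC). For MES against hESC 2 were higher and 1 lower, for HEP against MES 10 and 8, for HPC against HEP 12 and 5, and for HPC against hESC 22 and 9. Genes at 5 or more in either library of these comparisons numbered 17, 25, 32 and 36. The background is the share of all genes called, as given above. The 8 lower for HEP against MES are 32% of the 25, close to the 33.9% over all genes. With the GC trend removed, the lower genes numbered 4 for HEP against MES and 5 for HPC against hESC. Over the 94 genes the median log2 difference lay between 0 and 0.19 in the 4 comparisons.

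Receptor chains were the least represented. Of 21 chains and co-receptors, 3 reached 5, all in HPC, and all 3 are small signalling adaptors of innate receptors and not chains of the T or B cell receptor. TYROBP (DAP12) stood at 17.2 in HPC against 0.33 in HEP, HCST (DAP10) at 22.6 against 0.50, and FCER1G, the common gamma chain of Fc receptors, at 11.1 against 0.87. Among kinases of the TEC family, which act below SYK and ZAP70, BTK stood at 0.15 (hESC), 0.52 (MES), 14.2 (HEP) and 44.0 (HPC), a climb in the same libraries as that of VAV1, and TEC at 9.01 in HPC and 0.75 in HEP. MATK, a CSK-type kinase that restrains the SRC family, was high at both ends, with 16.7 (hESC), 0.71 (MES), 0.34 (HEP) and 12.0 (HPC). CSK itself stood at 7.92, 11.9, 22.4 and 20.2 in the order of the stages.

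Among the adaptors, GRAP2 and GRAP were highest in HEP. GRAP2 (GADS), which links LAT to LCP2 in T cells, stood at 0.09 (hESC), 2.78 (MES), 29.4 (HEP) and 9.87 (HPC), and GRAP at 0.23, 0.24, 20.8 and 8.87. Both stood above every other library in HEP, GRAP not with the GC trend removed (17.3 in HEP, against 8.82 in HPC, a log2 difference of -0.90 for HPC against HEP). GRAP has a near-identical copy, so its reads may be split between them. LAT, the membrane scaffold that ZAP70 phosphorylates, was late, at 10.9 in HPC against 0.64 in HEP. CD2AP was lower in HEP, at 1.33, than in MES, at 9.25 (-2.14), though not with the GC trend removed (-0.67). GRB2, used by most receptors, stayed between 22.4 and 27.9.

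Of 24 effectors, 9 stood at 5 or more in HEP or MES, of which 5 were higher in HEP than in MES and 2 lower, where 8.08% of all genes were higher and 33.9% lower. NFATC1, a calcium-driven transcription factor that is also at work in endothelium, stood at 0.56 (hESC), 1.49 (MES), 15.5 (HEP) and 3.44 (HPC), and ITPKB, an inositol phosphate kinase, at 1.11, 3.45, 18.2 and 7.15. With GRAP and GRAP2 these were the 4 pathway genes that stood above every other library in HEP, of which GRAP did not with the GC trend removed. Pathway genes at 5 or more in HEP numbered 21, and the share over all genes at 5 or more there was 3.54%. RASGRP2, an exchange factor for RAP1 in platelets, stood at 4.05 (hESC), 0.07 (MES), 11.9 (HEP) and 18.2 (HPC). RAC2, the blood cell RAC, was at 17.2 in HPC and 3.24 in HEP. MALT1, which acts between antigen receptors and NF-kappaB, was highest in MES (23.8) and lower in HEP (1.49, a log2 difference of -3.32, or -2.10 with the GC trend removed).

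Among the phosphatases and brakes, INPP5D (SHIP1), a lipid phosphatase of blood cells, stood at 1.49 (hESC), 0.69 (MES), 3.30 (HEP) and 23.1 (HPC), and the adaptors DOK1 and DOK3 reached 30.5 and 5.81 in HPC, against 18.4 and 1.93 in HEP. PTPN2 was lower in HEP, at 2.09, than in MES, at 12.7 (-2.15, or -0.89 and no call with the GC trend removed). Of the 94 genes, 27 were at 5 or more in HPC. Of these, 11 stood above every other library there: TEC, BTK, FCER1G, TYROBP, HCST, LAT, PRKCB, RAC2, WAS, INPP5D and DOK3. The share over all genes at 5 or more in HPC was 4.52%.

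**Figure D4:**
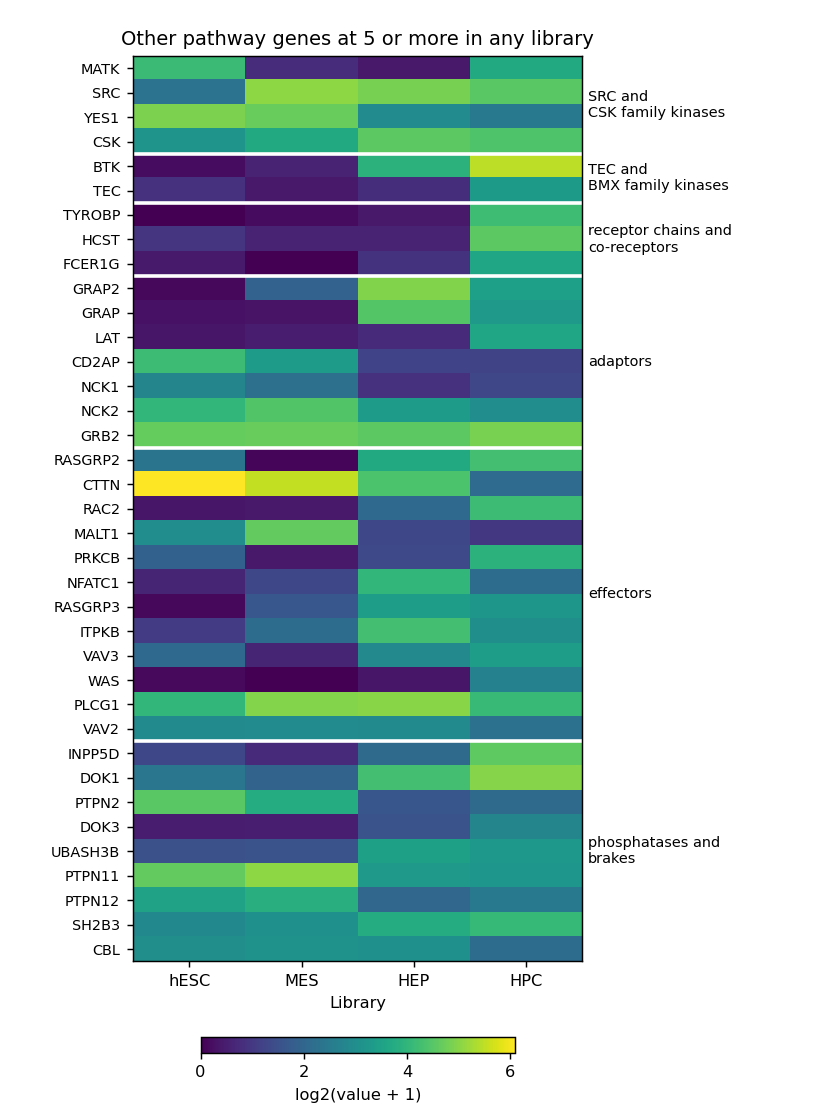
Log2(value + 1) by colour for the 37 other pathway genes at 5 or more in any library, in hESC, MES, HEP and HPC (columns, 1 library each), grouped by list and ordered within a list by their range. GRAP2, GRAP, NFATC1 and ITPKB are brightest in HEP, and BTK, TYROBP, HCST, FCER1G, LAT, RAC2 and INPP5D in HPC.

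Of the 20 protein-coding genes that lie next to a member on its chromosome, 17 were in the tables and 8 of these reached 5. In the 3 successive comparisons a neighbour had the same call as its member once, TMEM131 beside ZAP70 for MES against hESC. Few matches were possible, since TMEM131 had 2 calls, AUH, TGS1 and RPS20 had 1 each and the other neighbours had none.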

How the data were processed

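Messenger RNA libraries were made from total RNA (2 ug) with the Illumina TruSeq kit, per the labels' protocols. The authors deposited 1 table for each library with a normalised signal for each gene, and the depth is unknown. The tools named per the submitters' processing notes are BWA, Bowtie and RSEM, with build hg19. Their versions, the annotation, the use of strand and the RSEM measure (FPKM or TPM) were not given in the sources used here. Each table had 17634 rows, of which 4 with a shared name were left out.

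Because each group has 1 library, genes were called by size alone (pseudocount 1, minimum of 5, log2 threshold of 1). The members and gene lists were chosen with earlier results of these data known. Named were all members, their relatives and chromosome neighbours, up to 4 genes of each list with the largest range, and the 3 genes nearest in pattern to each of LCK, ZAP70, SYK, VAV1 and CD79B by Euclidean distance. A few genes that this rule names are not reported here. Other genes were named after their values were seen. Lymphocyte and other cell markers were fixed lists.

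Transcript GC content came from GENCODE 29, matched for 17428 genes (98.9%) and for all members and 94 pathway genes. Its trend was the median log2 deviation in 50 bins, averaged over 5, and was divided out. Promoter windows and neighbours came from RefSeq on GRCh38.p14, a build other than hg19, so no coordinates of the files are given; CD79B and LYN had no window. Tried as alternatives were a pseudocount of 0.1 or 5, a minimum of 20 or none, median-of-ratios, upper quartile and common total scaling, and removal of the GC trend. The calling rule was tested on simulated data. Python 3.11.15, numpy 2.4.6, pandas 2.3.3 and matplotlib 3.10.9 were used.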

Additional observations from a re-analysis of the deposited data

How the results depend on the processing

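No value has a replicate and the depth is unknown, so these settings show only how calls depend on choices of scale. No paired analysis was possible because each group has 1 library. Of the 40 differences of the 10 genes, 22 kept the same status under all 8 alternatives, and these include differences that were never called. Of the calls, 0 reversed. Some differences without a call changed sign, such as LYN for HEP against MES (-0.15 to 0.72). PTPN6 for HEP against MES (-0.10 to 0.62) and FYN for HPC against HEP (-0.05 to 0.15) did so too. Median-of-ratios scaling raised HEP by 0.64 and HPC by 0.62 in log2 against hESC, and the median of genes at 5 or more for HPC against hESC, -0.57 as deposited, was then -0.01. LCK for MES against hESC kept between -3.89 and -2.98, and ZAP70 for HPC against HEP between -5.04 and -3.26. The causes of the changes below were not tested beyond the fewer or more genes that a minimum admits.

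Counts of the 10 genes moved by over 1.5 times as follows. A minimum of 20 left 0 higher for MES against hESC, 2 for HEP against MES, 2 for HPC against HEP, 2 for HPC against hESC, and 2 above every other library in HPC. With no minimum, 2 were lower for MES against hESC and 1 for HEP against MES, as was 1 with the GC trend removed. A common total gave 2 lower for HPC against HEP and 2 above every other library in HEP.

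Of the other pathway genes, no minimum gave 8 higher and 6 lower for MES against hESC and 21 higher for HPC against HEP. A minimum of 20 gave 0 lower for MES against hESC, 2 higher and 5 lower for HEP against MES, 3 higher and 2 lower for HPC against HEP, and 6 higher and 4 lower for HPC against hESC. A pseudocount of 5 gave 3 lower for HPC against HEP. The lower genes numbered 4 for HEP against MES with the GC trend removed, and 5 for HPC against hESC with a pseudocount of 5, median-of-ratios scaling, upper quartile scaling or the GC trend removed.

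Over all genes, for MES against hESC, 669 higher and 653 lower as deposited became 409 and 314 with a pseudocount of 5 and 248 and 288 with a minimum of 20. The higher were 1028 with no minimum, and the lower 360 with a common total and 382 with the GC trend removed. For HEP against MES (584 and 2448), a minimum of 20 gave 287 and 831, median-of-ratios scaling 1456 and 1445, and upper quartile scaling 1367 and 1506. The higher were 892 with a common total, and the lower 1479 with a pseudocount of 5 and 875 with the GC trend removed. For HPC against HEP (530 and 630), a pseudocount of 5 gave 291 and 378 and a minimum of 20 gave 229 and 264, and the higher were 804 with no minimum. For HPC against hESC (822 and 2778), a minimum of 20 gave 332 and 1126, median-of-ratios scaling 1593 and 1573, and upper quartile scaling 1523 and 1658. The higher were 1242 with no minimum, and the lower 1813 with a pseudocount of 5 and 1162 with the GC trend removed.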
